A study of Mus musculus with 16 samples.

Results

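The 10 genes described here, Trem2, Tyrobp, Cst7, Itgax, Lpl, Spp1, Clec7a, Cd9, Axl and Gpnmb, belong to the phagocytic, Trem2-dependent programme of disease-associated microglia. They were taken by symbol from a hippocampal count table of 49315 genes, and each symbol named 1 row. RNA sequencing covered 16 mice in 4 groups of 4. Wild type (WT) and Kcna1 knockout (KO) mice had received either standard food or ketogenic food. Kcna1 encodes a subunit of a potassium channel of axons, and mice that lack it have spontaneous seizures. The ketogenic diet is rich in fat and poor in carbohydrate. Strain, age, sex, the kind of knockout allele and the time on the diet are not in the labels, and each library is named by its animal tag.

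Microglia are the resident phagocytes of the brain. TREM2 is a surface receptor of these cells that binds lipids, lipoproteins and apolipoproteins, and it signals through the adaptor TYROBP (DAP12), whose phosphorylated tail recruits the kinase SYK. Microglia near amyloid, dying neurons or damaged myelin lower homeostatic genes such as P2ry12 and Tmem119 and raise genes of phagocytosis, lysosomes and lipid handling. The later steps of that switch need Trem2 and include Cst7, Itgax, Lpl, Spp1, Clec7a, Cd9, Axl and Gpnmb. Several of these genes are not private to microglia: neurons make Lpl, astrocytes make Axl, and oligodendrocytes and astrocytes make Cd9.

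Promoters of 4 members are shown to let their motif letters be compared; these genes were at their highest in the same 2 libraries, as described below, and they were picked among the 6 members whose windows hold ETS letters. Each sequence is the 250 bases before the RefSeq start on GRCm38.p6, read 5′ to 3′ on the gene's strand (+ for all 4). Capitals mark GAGGAA or GGAAGT, letters found in sites of ETS factors such as PU.1, the factor that specifies microglia, and TGANTCA, the letters of AP-1 sites; both strands were searched. The windows are chr17:48346151-48346400 for Trem2, chr2:150570165-150570414 for Cst7, chr7:128129300-128129549 for Itgax and chr5:104434861-104435110 for Spp1.
Trem2: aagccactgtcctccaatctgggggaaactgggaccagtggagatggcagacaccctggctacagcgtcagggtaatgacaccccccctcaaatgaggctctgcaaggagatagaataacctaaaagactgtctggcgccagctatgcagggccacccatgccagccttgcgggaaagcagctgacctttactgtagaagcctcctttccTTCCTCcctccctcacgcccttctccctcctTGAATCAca
Cst7: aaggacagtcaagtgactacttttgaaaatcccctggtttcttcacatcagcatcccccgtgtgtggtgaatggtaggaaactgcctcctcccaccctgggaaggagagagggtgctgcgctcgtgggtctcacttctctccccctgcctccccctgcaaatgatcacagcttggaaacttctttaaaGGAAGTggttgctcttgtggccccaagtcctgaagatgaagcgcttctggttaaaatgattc
Itgax: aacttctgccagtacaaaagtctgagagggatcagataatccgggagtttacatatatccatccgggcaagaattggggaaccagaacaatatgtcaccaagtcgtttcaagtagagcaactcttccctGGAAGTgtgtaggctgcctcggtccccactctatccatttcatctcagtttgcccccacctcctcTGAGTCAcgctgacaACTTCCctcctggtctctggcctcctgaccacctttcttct
Spp1: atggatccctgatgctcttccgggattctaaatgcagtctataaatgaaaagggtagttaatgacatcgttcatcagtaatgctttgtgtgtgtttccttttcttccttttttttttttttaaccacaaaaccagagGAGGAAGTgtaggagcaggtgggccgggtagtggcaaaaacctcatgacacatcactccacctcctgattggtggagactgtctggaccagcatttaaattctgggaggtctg

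In Trem2 the ETS letters lay at -40 to -35 and the AP-1 letters at -9 to -3, counting the last base before the start as -1. Cst7 held GGAAGT at -62 to -57. Itgax held GGAAGT at -121 to -116 and again at -41 to -36, with AP-1 letters between them at -56 to -50. In Spp1, GAGGAA at -113 to -108 overlapped GGAAGT at -111 to -106. Clec7a held GAGGAA at -96 to -91 and Axl at -130 to -125. The windows of Cd9 and Gpnmb held none of these letters, although Gpnmb was at its highest in the same 2 libraries. Of the 10 members, 8 had a RefSeq window, and 6 of these 8 held either ETS motif, against 36.7% of 32851 windows of the same length. AP-1 letters were in 2 of the 8 and in 6.75% of all windows. Singly, GAGGAA was in 23.3% and GGAAGT in 19.7% of all windows. A match of letters is a description of the window and no evidence of binding. Tyrobp and Lpl have no window in the table used.

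Total counts ran from 13440230 to 22309504 per library, and 17469 genes passed the filter on low counts. The labels were checked on Kcna1, which was at 107 to 130.1 CPM in the 8 wild type libraries (counts scaled to a common effective library size) and at 43.4 to 47.2 CPM in 7 of the 8 knockout libraries. The library labelled knockout KC888LL, on the standard diet, stood between them at 82.0 CPM. KC872RL and KC873RR, both knockout on the standard diet, stood apart from the other 14 libraries in microglial genes. Both also expressed Y-linked Ddx3y, as did KC890RL (wild type, standard diet) and KC846L (wild type, ketogenic diet), where Trem2 was at 8.10 and 8.70 CPM. No other knockout library expressed it, on either diet. Among knockouts, sex therefore cannot be told apart from what else sets KC872RL and KC873RR apart, and wild type values do not settle this. Leaving both out also removes every knockout with Y-linked expression. Diet and sex among knockouts cannot be fully told apart either.

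Of the 10 members, 7 passed the filter and were tested; Cst7, Itgax and Clec7a were too low. In wild type mice on the standard diet, levels per kilobase of exon differed widely. Cd9 stood at 18.04 ± 2.62 CPM per kb (SD, n = 4), Lpl at 12.4 ± 0.549 and Axl at 9.97 ± 0.667. Tyrobp followed at 4.70 ± 0.375 and Trem2 at 1.499 ± 0.251 CPM per kb. Gpnmb was at 0.264 ± 0.0517 and Spp1 at 0.232 ± 0.134 CPM per kb, a gap within their spread. Itgax at 0.0656 ± 0.0138, Cst7 at 0.0341 ± 0.0683 and Clec7a at 0.0183 ± 0.0230 CPM per kb came last, each within the spread of its neighbour in that order. The 3 most abundant members are thus those that other brain cells also make, and the genes most particular to the phagocytic state were near the detection floor in wild type mice. A floor of 3 counts corresponded to 0.137 to 0.224 CPM, depending on the library.

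KC872RL and KC873RR held the 2 highest levels of the 16 libraries for 8 of the 10 members; among the 7 tested members this was so for 5, against 6.07% of all tested genes. Cd9 and Lpl were the exceptions. Both libraries were singled out after these values were seen, so these counts are a description and no test. Of the other 6 knockout libraries, 3 each lay outside the wild type range in Cd9, Spp1 and Lpl, 2 lay above it in Axl and 4 above it in Gpnmb. Trem2 lay outside it in KC916RRL and KC935LL, Tyrobp in KC893RL and KC935LL, and Cst7, at low counts, in KC888LL and KC916RRL. Itgax, also at low counts, lay outside it in KC893RL, KC913RR, KC916RRL and KC935LL, and Clec7a in none of them. RNA of a whole tissue cannot tell more cells of a type from more RNA per cell.

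**Figure D1:**
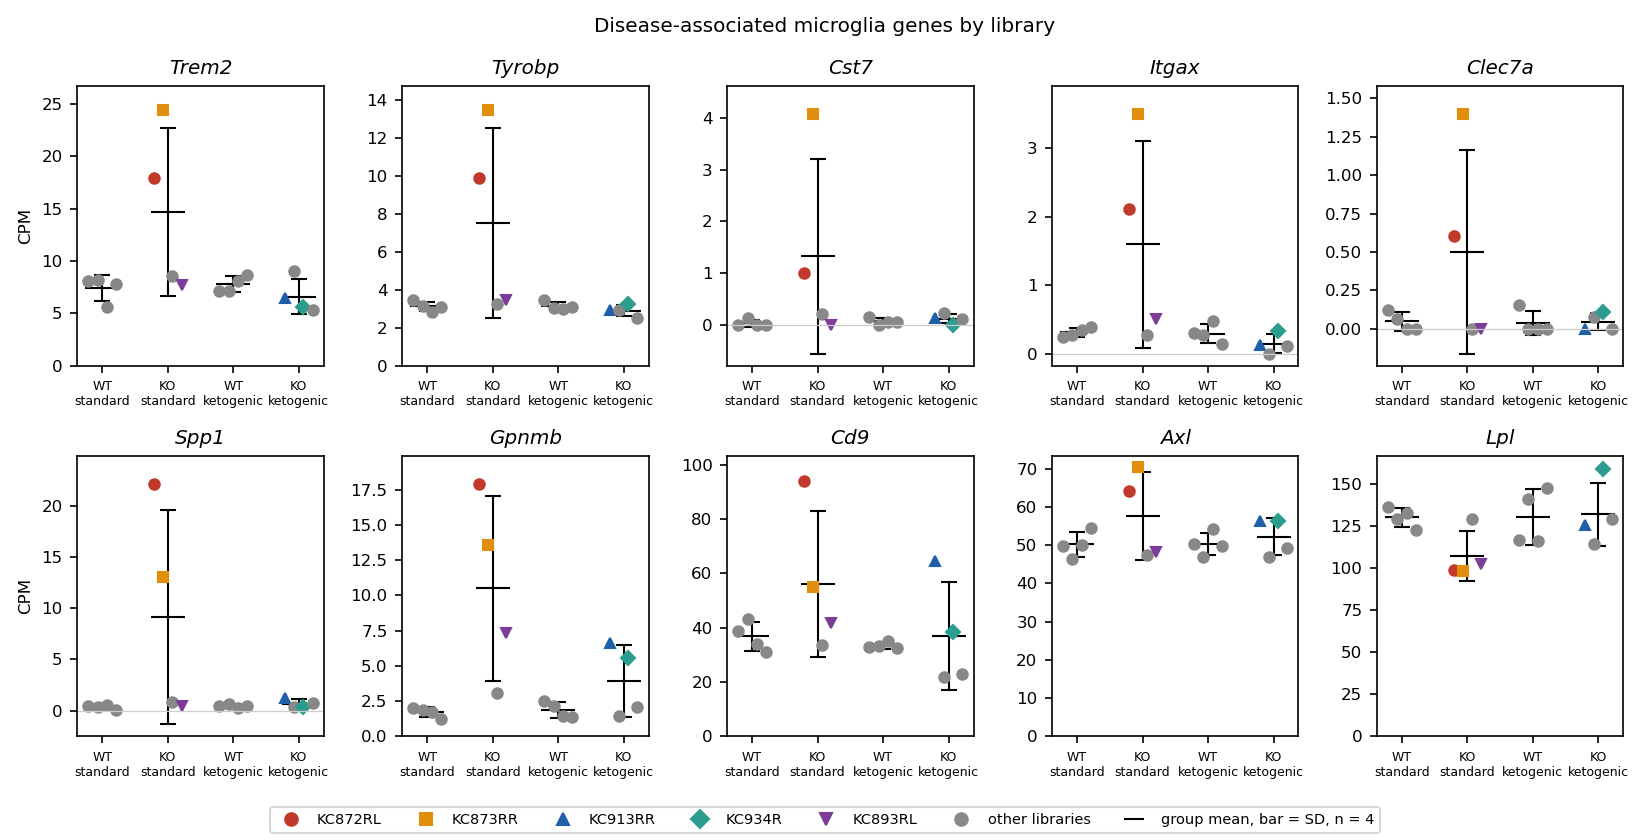
CPM of each of the 10 members in each of the 16 libraries, by group, on linear axes that differ between panels; bars are the group mean and SD (n = 4). KC872RL and KC873RR are above all other libraries in 8 panels, while in Lpl they are the lowest.

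Positions are those of GENCODE M21 on GRCm38. Trem2 (chr17:48346401-48354147, + strand) was at 8.10, 8.15, 5.56 and 7.84 CPM in the wild type on the standard diet and at 7.16, 7.13, 8.13 and 8.70 CPM in the wild type on the ketogenic diet. Knockout libraries on the standard diet read 17.9 (KC872RL), 24.4 (KC873RR), 8.55 (KC888LL) and 7.74 CPM (KC893RL). On the ketogenic diet the knockouts read 6.42, 9.05, 5.64 and 5.29 CPM. KC872RL and KC873RR stood far above the wild type range, at 2.42 and 3.29 times the wild type mean on the standard diet, and among the others KC916RRL was just above that range and KC935LL just below it. The knockout groups therefore overlapped the wild types on both diets, and each other. The fitted log2 difference of KO from WT on the standard diet was 0.98 ± 0.31 (SE; edgeR quasi-likelihood, unadjusted p = 0.00581, Benjamini-Hochberg adjusted p = 0.206). Without KC872RL and KC873RR it was 0.13.

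Tyrobp (chr7:30413760-30417585, + strand), the adaptor through which TREM2 signals, was highest in the same 2 libraries. It was at 9.91 CPM in KC872RL and 13.5 CPM in KC873RR, and at 3.25 and 3.49 CPM in the remaining knockouts on the standard diet. The wild types ran from 2.85 to 3.46 CPM and the knockouts on the ketogenic diet from 2.53 to 3.26 CPM. These 12 libraries and KC888LL and KC893RL thus filled one narrow band, and KC872RL and KC873RR stood clear of it. Per unit of Trem2, Tyrobp was 0.553 in KC872RL and 0.551 in KC873RR, inside the range of 0.322 to 0.578 over the other 14 libraries. The ratios of Spp1, Itgax, Cst7 and Clec7a to Trem2 were above those of the other 14 in both libraries, those of Lpl and Axl were below them in both, and that of Gpnmb was inside their range; Cd9 was inside it in KC872RL and below it in KC873RR. The log2 difference on the standard diet was 1.26 ± 0.35 (edgeR, unadjusted p = 0.0021, adjusted p = 0.199), and 0.10 without both libraries.

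Clec7a (chr6:129461591-129472779, - strand; annotated in GENCODE as a polymorphic pseudogene) encodes dectin-1, a receptor for beta-glucans. It had 12 counts in KC872RL and 24 in KC873RR, and 0 to 3 counts in each of the other 14 libraries. Itgax (chr7:128129547-128150657, + strand) encodes CD11c, an integrin alpha chain of dendritic cells and activated microglia. It had 42 counts (2.11 CPM) in KC872RL and 60 counts (3.50 CPM) in KC873RR. Elsewhere it had 0 to 8 counts, at most 0.508 CPM, reached in KC893RL. Outside KC872RL and KC873RR both receptors thus had few counts or none, in wild type and knockout mice alike.

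Axl (chr7:25757273-25788705, - strand), a receptor tyrosine kinase that recognises dying cells through GAS6, differed least among the receptors. It was at 64.1 CPM in KC872RL and 70.4 CPM in KC873RR, or 1.28 and 1.40 times the wild type mean. The other 14 libraries lay between 46.4 and 56.5 CPM, with KC913RR and KC934R, both knockout on the ketogenic diet, at the top of them. The log2 difference on the standard diet was 0.20 ± 0.11 (edgeR, unadjusted p = 0.0853, adjusted p = 0.421), and its sign turned to -0.07 without KC872RL and KC873RR. Cd9 (chr6:125460266-125494791, - strand), a tetraspanin, read 94.1 (KC872RL), 55.1 (KC873RR), 33.7 (KC888LL) and 41.7 CPM (KC893RL) in the knockouts on the standard diet, and 64.6 (KC913RR), 21.7 (KC916RRL), 38.2 (KC934R) and 23.0 CPM (KC935LL) in those on the ketogenic diet. The wild types spanned 31.1 to 43.3 CPM, so the knockouts on the ketogenic diet had 1 library above and 2 below every wild type. Its log2 difference on the standard diet was 0.61 ± 0.35 (edgeR, adjusted p = 0.458), and 0.03 without both libraries.

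Cst7 (chr2:150570415-150578944, + strand) encodes cystatin F, an inhibitor of lysosomal cysteine proteases. It had 20 counts (1.01 CPM) in KC872RL and 70 counts (4.08 CPM) in KC873RR, against 0 to 4 counts in each of the other 14 libraries. Among those 14, 0 counts were found in 3 WT libraries of the standard diet and 1 of the ketogenic diet, and in 1 KO library of each diet. Spp1 (chr5:104435118-104441050, + strand) encodes osteopontin, a secreted phosphoprotein of activated macrophages that binds integrins. Its knockout libraries on the standard diet read 22.1 (KC872RL), 13.1 (KC873RR), 0.866 (KC888LL) and 0.444 CPM (KC893RL). Wild types read 0.503, 0.404, 0.556 and 0.0653 CPM on the standard diet and 0.508, 0.648, 0.295 and 0.455 CPM on the ketogenic diet. Knockouts on the ketogenic diet read 1.27 (KC913RR), 0.374, 0.332 and 0.705 CPM. KC872RL and KC873RR were thus 57.8 and 34.2 times the wild type mean on the standard diet, the widest ratios among the tested members. The log2 difference on the standard diet was 4.56 ± 1.10 (edgeR, unadjusted p = 0.00116, adjusted p = 0.192), and 0.79 without both libraries.

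Gpnmb (chr6:49036546-49070929, + strand), a transmembrane glycoprotein of lipid-laden phagocytes, was high in knockout libraries beyond KC872RL and KC873RR. Wild types were at 2.01, 1.89, 1.74 and 1.24 CPM on the standard diet and at 2.54, 2.16, 1.47 and 1.37 CPM on the ketogenic diet. Knockouts on the standard diet were at 17.9 (KC872RL), 13.6 (KC873RR), 3.08 (KC888LL) and 7.36 CPM (KC893RL). All 4 were above all 8 wild types, and this was the 1 tested member whose standard diet groups did not overlap, against 2.97% of all tested genes in that direction. On the ketogenic diet KC913RR at 6.62 CPM and KC934R at 5.53 CPM were also above every wild type, while KC916RRL at 1.42 and KC935LL at 2.06 CPM were within the wild type range. The log2 difference on the standard diet was 2.61 ± 0.55 (edgeR, unadjusted p = 0.000308, adjusted p = 0.192), and on the ketogenic diet 1.06 ± 0.55 (unadjusted p = 0.0742, adjusted p = 0.575). Without KC872RL and KC873RR the standard diet difference was 1.59 (unadjusted p = 0.0089, adjusted p = 0.998).

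The 5 knockout libraries with the most Gpnmb were also the 5 with the most Gfap, the intermediate filament gene of reactive astrocytes. Gfap was at 2327 CPM in KC872RL, 2018 in KC913RR, 1340 in KC873RR, 1059 in KC934R and 611 in KC893RL. In the other 3 knockouts it was at 288 to 348 CPM, and in the wild types at 294 to 390.4 CPM. KC913RR, KC934R and KC893RL had high Gfap and Gpnmb with Trem2 inside the wild type range. KC913RR had the second highest Gfap and Cd9 of all 16, but Trem2 at 6.42 and Tyrobp at 2.94 CPM, both within the wild type ranges, and 0 counts of Clec7a. High Gfap therefore occurred both with and without high Trem2 and Tyrobp. The part that reactive astrocytes play in the Gpnmb and Cd9 values was not tested.

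Lpl (chr8:68880491-68907448, + strand), lipoprotein lipase, ran the other way. Knockouts on the standard diet were at 98.9 (KC872RL), 98.4 (KC873RR), 129 (KC888LL) and 102 CPM (KC893RL). Wild types were at 136, 129.5, 133 and 123 CPM on the standard diet and at 117, 141, 116 and 148.0 CPM on the ketogenic diet. Knockouts on the ketogenic diet were at 126.0, 115, 159 (KC934R) and 129 CPM. KC872RL, KC873RR and KC893RL were thus the 3 lowest of the 16, and KC888LL, the library with intermediate Kcna1, was within the wild type range. The log2 difference on the standard diet was -0.28 ± 0.11 (edgeR, unadjusted p = 0.0174, adjusted p = 0.259), and -0.17 without KC872RL and KC873RR. Summed neuronal markers, 8 genes, were also low in KC872RL and KC873RR, at 7217 and 7057 CPM against 7771 to 8833 CPM in the other 14 libraries, and the part of neurons in the Lpl values was not tested.

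**Figure D2:**
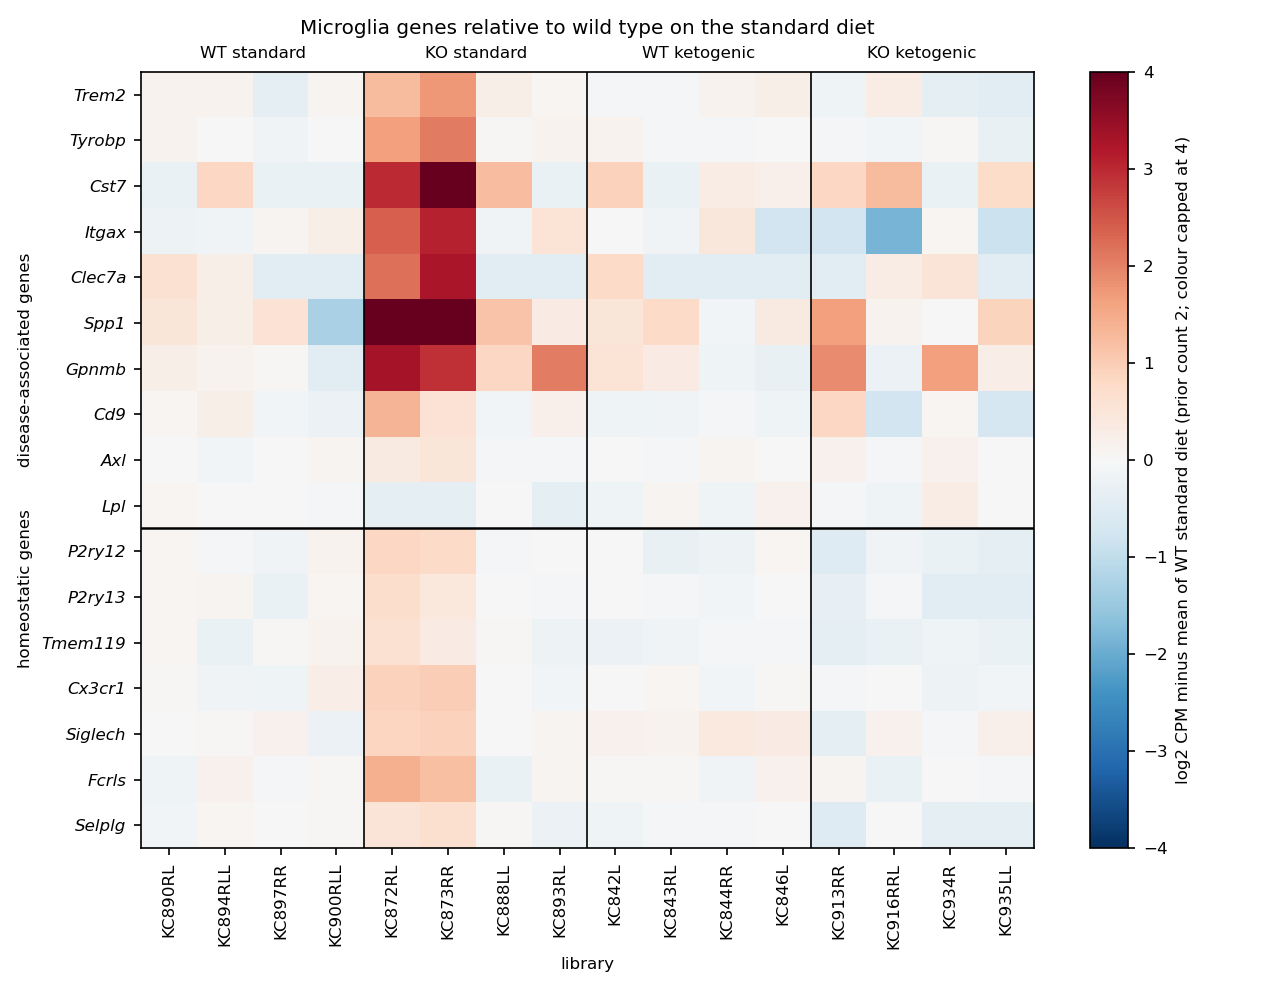
log2 CPM (prior count of 2) of the 10 members and of the 7 homeostatic microglial genes named in the text, in each library, minus the gene's mean over the wild type libraries on the standard diet, with the colour capped at 4. The KC872RL and KC873RR columns are the most strongly coloured in both gene groups, and Lpl has the opposite sign there.

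Between KC872RL and KC873RR the levels of all members but Lpl differed by more than counting error, which does not cover the spread between animals: among wild types on the standard diet alone, Trem2 ran from 5.56 to 8.15 CPM. Relative to KC872RL, KC873RR had more Cst7, with a CPM ratio of 4.06 (exact 95% interval 2.44 to 7.04). The same held for Clec7a at 2.32 (1.11 to 5.09), Itgax at 1.66 (1.10 to 2.52), Trem2 at 1.36 (1.18 to 1.58) and Tyrobp at 1.36 (1.12 to 1.65). It had less Gpnmb, at 0.758 (0.640 to 0.897), less Spp1, at 0.591 (0.501 to 0.696), and less Cd9, at 0.586 (0.541 to 0.634). The intervals of Cst7, Clec7a, Itgax, Trem2 and Tyrobp lie wholly above 1, and those of Gpnmb, Spp1 and Cd9 wholly below it. Lpl was equal within counting error, at 0.994 (0.931 to 1.06), and Axl differed slightly, at 1.10 (1.01 to 1.19). Of these 2 libraries, the one with the more Gfap, KC872RL, was thus the one with more Spp1, Gpnmb and Cd9, and the one with less Gfap had more of the receptors and of Cst7.

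The first comparison the design holds is KO against WT on the standard diet. With edgeR, 0 of the 7 tested members passed an adjusted p of 0.05, and 1 gene in the whole table did (0.00572% of those tested). At an unadjusted p under 0.05, Trem2, Tyrobp, Spp1 and Gpnmb were higher, against 7.64% of all tested genes, and Lpl was lower, against 6.69%. The median log2 difference of the 7 was 0.98, and that of all tested genes 0.00. DESeq2, run on 33151 genes without that filter, called 4 members (Spp1, Gpnmb, Tyrobp and Trem2, adjusted p = 0.00322, 0.00322, 0.0347 and 0.0499) and 171 genes in all. It gave no adjusted p to Cst7, Itgax and Clec7a, so these could not be called, and it adjusted over fewer than 33151 genes. EdgeR, adjusted over all 33151 genes, called 0 members and 18 genes. On the filtered genes limma-voom called 0 members and 2 genes. Leaving out KC888LL, edgeR called 5: Spp1, Gpnmb, Tyrobp and Trem2 higher and Lpl lower, with log2 differences of 4.94, 2.91, 1.51, 1.17 and -0.39. In that fit 1016 of 17725 genes were called in all. Leaving out KC872RL and KC873RR gave 0 calls, a median of 0.10 over the members, and Gpnmb as the single member with an unadjusted p under 0.05. With Xist, the RNA of the inactive X chromosome, as a covariate, the differences were 0.55 for Trem2, 0.70 for Tyrobp, 2.51 for Spp1, 2.12 for Gpnmb and -0.28 for Lpl, with 0 members called.

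The second comparison is ketogenic against standard diet among knockouts. It shares the knockout libraries on the standard diet with the first, so the 2 sets of values are not independent. With edgeR 0 of the 7 members passed, against 1.16% of all tested genes (202). At an unadjusted p under 0.05, Trem2, Tyrobp, Spp1 and Gpnmb were lower on the ketogenic diet, against 9.1% of all tested genes, and Lpl was higher, against 7.83%. The log2 differences were -1.16 ± 0.31 for Trem2 (adjusted p = 0.0837) and -1.37 ± 0.35 for Tyrobp (adjusted p = 0.0682). Spp1 differed by -3.77 ± 1.01 (adjusted p = 0.0962), Gpnmb by -1.42 ± 0.50 (adjusted p = 0.173) and Lpl by 0.30 ± 0.11 (adjusted p = 0.162). Cd9 at -0.61 ± 0.35 and Axl at -0.14 did not pass at either level. In 0 of the 10 members did the knockout diet groups stand apart without overlap, which 3.72% of all tested genes did downwards and 2.68% upwards. In the same comparison 10 of 10 oligodendrocyte genes were lower on the ketogenic diet, 8 of them called (median -0.87), with summed levels of 5251 to 5806 CPM in knockouts of the standard and 2021 to 3807 CPM in those of the ketogenic diet. Of 6 blood genes 5 were lower, 4 of them called (median -1.99). The medians without KC872RL and KC873RR were -0.94 and -1.78, with 0 called in either list. Between diets in wild types, 10 of 10 oligodendrocyte genes were lower too (edgeR, median -0.49). All 10 had an unadjusted p under 0.05 (5.46% of all tested genes in either direction), and 0 were called. Of the 6 blood genes 5 were lower in wild types, 0 at either level (median -0.06). The part of both lists in the members' values was not tested.

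These diet values rest on the same libraries. Without KC872RL and KC873RR, Trem2 differed by -0.32, Tyrobp by -0.21, Spp1 by 0.01 and Gpnmb by -0.40 between diets in knockouts, and the members' median moved from -1.16 to -0.03. No member then had an unadjusted p under 0.05, and 2 genes of the whole table were called. With Xist as a covariate, Trem2 differed by -0.59, Tyrobp by -0.64, Spp1 by -1.04, Gpnmb by -0.77 and Lpl by 0.30, with 0 members and 7 genes called. Leaving out KC888LL instead gave 5 called members, Trem2, Tyrobp, Spp1, Gpnmb and Lpl, with 1096 of 17725 genes called in all. Leaving out KC893RL gave 3, Spp1, Tyrobp and Trem2, with 218 of 17726 genes. DESeq2, run without the edgeR filter, called those same 3 and 664 genes, with no adjusted p for Cst7, Itgax and Clec7a. Limma-voom called 0 members and 146 of 17469 genes. With no filter on low counts, Itgax was the 1 member edgeR called in this comparison, at -3.30 (adjusted p = 0.0476), with 231 of 33151 genes called in all. In that unfiltered fit Cst7, Itgax and Clec7a had adjusted p = 0.3, 0.245 and 0.435 for KO against WT on the standard diet.

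Under ketogenic feeding, the comparison of knockout with wild type gave 0 of 7 members at an adjusted p of 0.05 (0.0172% of all tested genes) and 0 at an unadjusted p under 0.05 (9.22%). DESeq2 and limma-voom called 0 as well. Trem2 differed by -0.25 ± 0.31 (edgeR, adjusted p = 0.839), and the median of the members was 0.06. Between diets in wild type mice the members also gave 0 at either level (0.0114% and 5.46% of all tested genes), by edgeR, with log2 differences from -0.15 to 0.32 and 0 calls by DESeq2 and limma-voom. The test of whether genotype acts differently on the 2 diets called 0 members and 0 genes (0%) with edgeR, with 1306 genes (7.48%) at an unadjusted p under 0.05; DESeq2 called 4 genes and 0 members, and limma-voom 0. Trem2, Tyrobp and Spp1 had unadjusted p = 0.0132, 0.014 and 0.0361 there, all lower, against 4.09% of all tested genes. Their interaction terms were -1.23 ± 0.44, -1.37 ± 0.50 and -4.09 ± 1.75 on the log2 scale, with adjusted p = 0.654 for each. With KC872RL and KC873RR left out they were -0.38, -0.21 and -0.31, with unadjusted p = 0.161, 0.392 and 0.699. A dependence of the genotype difference on diet was therefore not shown for any member.

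**Figure D3:**
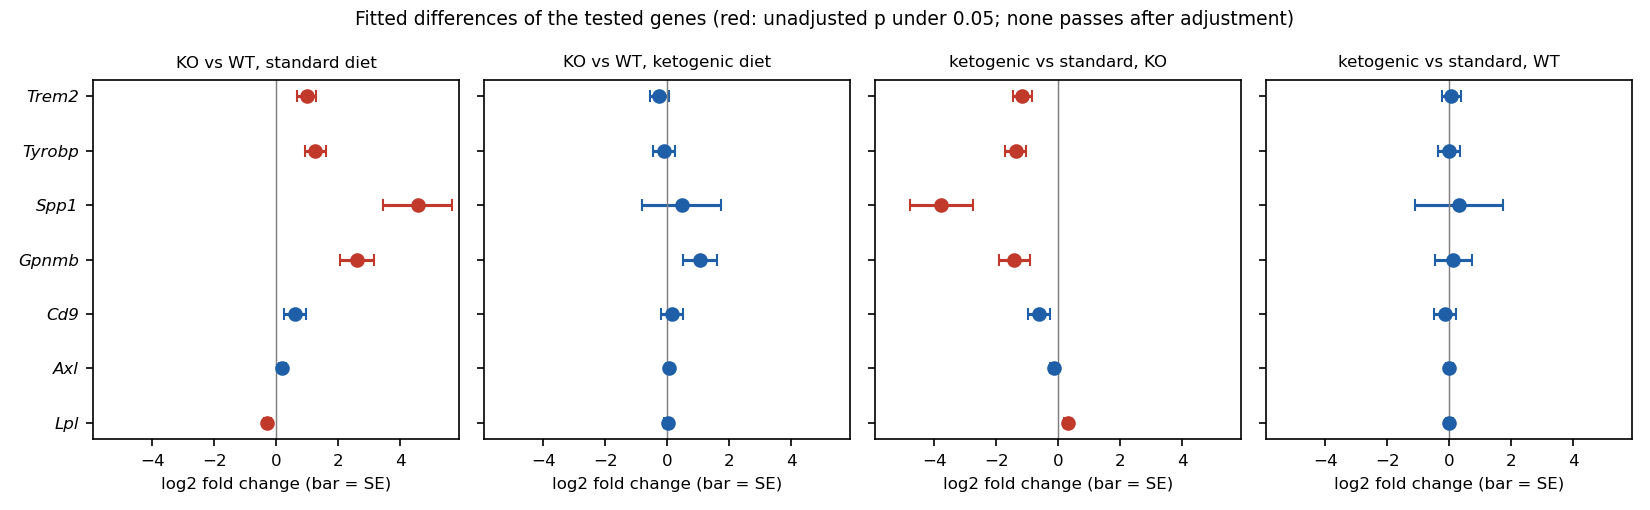
Fitted log2 fold changes of the 7 tested members in the 4 pairwise comparisons, with bars of 1 SE, from the edgeR fit of all 16 libraries; red points have an unadjusted p under 0.05. Trem2, Tyrobp, Spp1 and Gpnmb lie to the right of 0 for KO against WT on the standard diet and to the left of it for the diets in knockouts, and Lpl does the reverse.

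Genes that act with the members were counted from lists. Of 12 genes of TREM2 signalling, shedding and ligands, 11 were tested (Hcst was not), and 10 were higher in knockouts on the standard diet (51.1% of all tested genes), 4 of them at an unadjusted p under 0.05 (7.64%) and 0 at an adjusted one; the median was 0.40. These include Clu, clusterin, a lipoprotein that TREM2 binds, at 0.42 (edgeR, adjusted p = 0.192), and the receptor gene Cd33 at 0.91 (adjusted p = 0.202). Inpp5d, the phosphatase SHIP1 that dampens the pathway, was at 0.54, and the kinase Syk at 0.71. Between diets in knockouts 10 of the 11 were lower (48.5% of all tested genes), 6 at an unadjusted p (9.1%), 0 adjusted, with Clu at -0.43 (adjusted p = 0.052), Inpp5d at -0.73 and Vav1, an exchange factor downstream of SYK, at -1.09. Without KC872RL and KC873RR, 6 of the 11 were higher on the standard diet (48.8% of all genes in that fit), with a median of 0.01, and Syk was at -0.01; between diets 6 were lower (47.8%), with a median of -0.07. Without KC888LL, 4 were called higher in knockouts on the standard diet (2.88% of all genes in that fit) and 4 lower between diets (3.6%).

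Of 25 further disease-associated genes, of which Apoe is also in the TREM2 list, 21 were tested and 18 were higher in knockouts on the standard diet (51.1% of all tested genes), 10 at an unadjusted p (7.64%) and 0 adjusted. Cathepsin genes Ctsz, Ctsa and Ctsb stood at 0.99, 0.40 and 0.39, and Apoe, the main lipoprotein component of the brain and a TREM2 ligand, at 0.15. Between diets in knockouts 19 were lower (48.5%), 12 at an unadjusted p (9.1%). Of these, 2 passed with edgeR (0.95% of all tested genes did, in that direction): Lyz2, lysozyme, at -2.19 ± 0.50 (adjusted p = 0.0494), and Csf1, a growth factor of microglia, at -0.35 ± 0.09 (adjusted p = 0.0496). Both calls lie at the threshold: without KC872RL the adjusted p was 0.18 for Lyz2 and 0.228 for Csf1, without KC873RR 0.137 and 0.15, and without both libraries the difference of Lyz2 was -0.58. With each library left out in turn, the log2 difference ranged from -2.52 to -1.77 for Lyz2 and from -0.42 to -0.3 for Csf1. Over all alternatives the difference smallest in size was -0.58 for Lyz2 and -0.24 for Csf1. Without both, 12 of the 22 genes then tested were higher on the standard diet (48.8% of all genes in that fit), with a median of 0.02, and 15 were lower between diets (47.8%), with a median of -0.09. Without KC888LL, 9 of the 23 genes then tested were called higher on the standard diet (2.88% of all genes in that fit) and 10 lower between diets (3.6%).

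The homeostatic genes, which fall in disease-associated microglia in other settings, were higher too. All 12 were tested, and KC872RL and KC873RR were their 2 highest libraries in 12 of 12, against 6.07% of all tested genes. As the pair was singled out after the data were seen, this count is no test. Summed, they stood at 563.8 and 569.8 CPM there, against 273 to 328 CPM in the other 14 libraries. In knockouts on the standard diet 12 of 12 were higher (51.1% of all tested genes), 8 at an unadjusted p (7.64%) and 0 adjusted, with Siglech at 0.54, Fcrls at 0.80, P2ry12 at 0.44, Tmem119 at 0.23 and Cx3cr1 at 0.52. Between diets in knockouts 12 of 12 were lower (48.5%), 11 at an unadjusted p (9.1%) and 0 adjusted, with P2ry12 at -0.77 (adjusted p = 0.0535) and no overlap of the groups. P2ry13 was at -0.61, Selplg at -0.59, Cx3cr1 at -0.62 and Tmem119 at -0.50. Leaving out KC888LL, 5 of 12 were called higher on the standard diet (2.88% of all genes in that fit) and 10 of 12 lower between diets (3.6%). Without KC872RL and KC873RR, 9 of 12 were lower between diets (47.8% of all genes in that fit), with a median of -0.09. In that setting 2 of 12 were higher on the standard diet (48.8%), with a median of -0.06, and P2ry12, Tmem119, Cx3cr1 and Fcrls turned to -0.03, -0.07, -0.07 and -0.07.

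The 7 tested members were set against these 12 homeostatic genes as mean log2 CPM per library. The members' mean less the homeostatic mean was 0.00 in KC872RL and -0.08 in KC873RR. It was -0.25 in KC913RR, -0.62 in KC934R, -0.67 in KC893RL and -0.74 in KC888LL, and between -0.89 and -1.36 in the wild types and in KC916RRL and KC935LL. In KC872RL and KC873RR the members' mean thus stood higher by more than the homeostatic mean, but not each member did. Spp1, at 57.8 and 34.2 times the wild type mean of the standard diet, and Gpnmb, at 10.4 and 7.9 times, had the widest ratios. These genes therefore weigh most in the difference. Axl, at 1.28 and 1.40 times the wild type mean of the standard diet, stood below P2ry12 at 1.76 and 1.69 times, and Lpl was lower than in wild types. KC913RR had a homeostatic mean of 4.02, the lowest of the 16, and a members' mean of 3.77, the third highest. There Gpnmb, Cd9, Axl and, at 19 counts, Spp1 were above the wild type ranges, while Trem2, Tyrobp and Lpl were within them. Group means of the difference were -1.07 ± 0.19 and -0.99 ± 0.10 in wild types on the standard and the ketogenic diet, and -0.37 ± 0.38 and -0.74 ± 0.39 in knockouts (SD, n = 4).

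**Figure D4:**
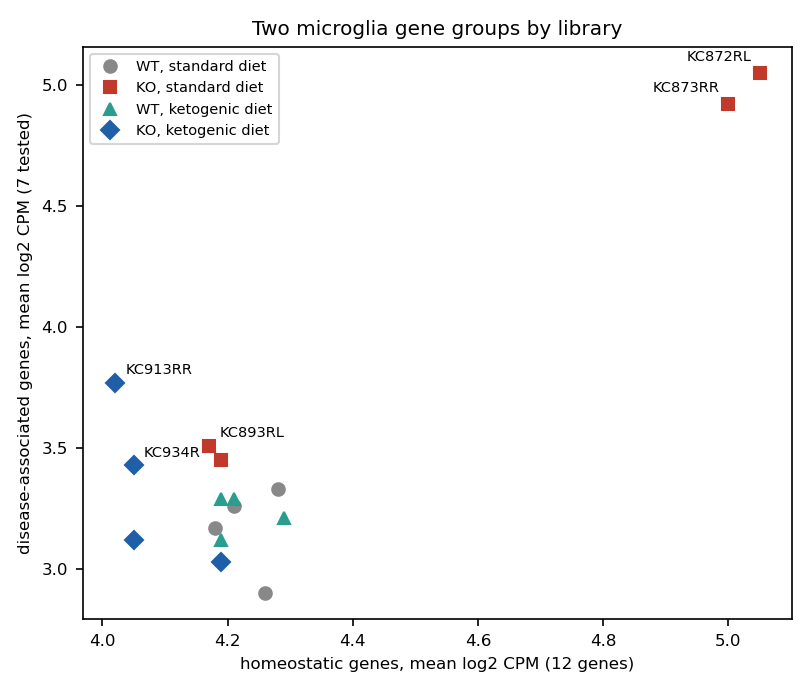
Mean log2 CPM of the 7 tested members against that of the 12 homeostatic genes, 1 point per library. KC872RL and KC873RR are high on both axes. KC913RR is high in the members' mean alone, with its Trem2 and Tyrobp inside the wild type ranges.

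Cells other than microglia can carry several of these genes, so marker lists were summed in each library. Border macrophage genes, 7 listed, came to 6.59 CPM in KC872RL and 7.23 in KC873RR, against 2.51 to 6.72 in the other 14. Monocyte genes, 5 listed, came to 112.0 and 93.9 CPM against 48.1 to 112 CPM. Fn1 made up most of the monocyte sum, at 108.9 CPM in KC872RL and 46.2 to 110 CPM in the other 14 libraries. Neutrophil genes came to 0.855 and 0.466 CPM against 0.131 to 1.19, and lymphocyte genes, of which Cd3d was at 0 in every library, to 0.302 and 0.758 against 0.131 to 0.972. Dendritic cell genes, the other usual source of Itgax, came to 14.2 and 15.0 CPM against 13.4 to 24.3. Reactive astrocyte genes came to 2880 and 1627 CPM against 374.5 to 2411, and oligodendrocyte precursor genes to 836.5 and 515 against 407 to 587. Of the precursor genes, Gpr17 alone was at 387.3 CPM in KC872RL, against 32.0 to 113.3 CPM in the other 14 libraries. Endothelial genes, at 199 and 196 CPM against 159 to 185, were above the other 14 in both libraries. Astrocyte genes came to 5324 and 5931 CPM against 4585 to 5394, and mural and fibroblast genes to 221 and 182 against 109.9 to 220.4. Flt3 and Zbtb46 made up most of the dendritic cell sum, and Cd209a, Xcr1, Ccr7 and Clec9a were at or under 0.673 CPM in all libraries. Among the immune lists, the homeostatic microglial sum was well above the other 14 libraries in both KC872RL and KC873RR, and the border macrophage and monocyte sums were narrowly above them in 1 of the 2. The share of each cell type in the members' values was not tested.

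Genes most like the members in pattern were sought over the 16 libraries, by the root mean square difference of standardized log2 CPM from the standardized mean of the 7 tested members. The nearest 6 outside the members were C1qb at 0.218, Ctsd at 0.307, Ly86 at 0.332, H2-K1 at 0.358, C1qc at 0.36 and Cd68 at 0.385; the median over all tested genes was 1.41. C1qb and C1qc encode chains of complement C1q, Ctsd a lysosomal protease, Ly86 a partner of an innate receptor, H2-K1 a class I antigen-presenting chain and Cd68 a lysosomal glycoprotein. C1qb was at 35.5 CPM in KC872RL and 29.5 CPM in KC873RR, against 9.28 to 16.5 CPM in the other 14. Of the members, Tyrobp was at 0.364, Spp1 at 0.4, Gpnmb at 0.502, Axl at 0.505, Cd9 at 0.549 and Trem2 at 0.615, while Lpl at 1.73 was farther from the mean than the median gene. Nearest to Trem2 itself were Tyrobp at 0.374, Fyb, an adaptor of immune cells, at 0.375, and Inpp5d at 0.379. Fyb was at 7.85 and 8.16 CPM in KC872RL and KC873RR, and at 1.64 to 2.88 CPM elsewhere.

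Cd9, Clec7a and Gpnmb share chromosome 6 with the targeted gene. Their starts lie 1.18, 2.82 and 77.6 Mb from that of Kcna1. Over the 8 knockouts, Cd9 was above the wild type range in 3, below it in 2 and within it in 3. Gpnmb was above every wild type in 6 of the 8, and Clec7a had 0 to 2 counts in the 6 knockouts other than KC872RL and KC873RR.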

How the data were processed

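RNA was sequenced from the hippocampus of 16 mice, 4 per group, each library a separate animal per the labels. The authors deposited 1 table of raw counts per Ensembl gene. The submitters' processing notes name mm10 and DESeq2 without saying what each was used for; the aligner, the counting program, the annotation and the use of strand are not given in the sources used here, so genes with overlapping or antisense neighbours are uncertain. Columns give an animal tag, genotype and diet, and were assigned to groups by these. Of 49315 identifiers, 48970 were in GENCODE M21, used for positions and exon lengths. Promoters are RefSeq windows on GRCm38.p6.

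Counts were tested in edgeR 4.0.16 (R 4.3.3) over all 16 libraries: filterByExpr by group, TMM factors, robust quasi-likelihood fit with 1 coefficient per group, 12 residual degrees of freedom, two-sided tests, and Benjamini-Hochberg adjustment over 17469 genes, with calls at 0.05. CPM uses effective library sizes and log2 CPM a prior count of 2. Alternatives were other normalization factors, other filters, DESeq2 1.42.0 without filterByExpr, limma-voom (limma 3.58.1), no robust estimation, only the groups compared, Xist as a covariate, a fit of those libraries in which Xist exceeded 100 CPM while Ddx3y was under 10 CPM, each library left out, and, chosen after seeing the data, KC872RL and KC873RR left out together. DESeq2 kept its own default filter on low means. That filter left Cst7, Itgax and Clec7a without an adjusted p in the pairwise comparisons that include knockouts. Members and lists were chosen with earlier results of these data known. Besides all members, the text names Apoe, P2ry12, Tmem119, Cx3cr1, Syk, Kcna1 and Gfap, and, from each of the 3 lists, the 3 genes of smallest p in KO against WT on the standard diet and in the diet comparison in knockouts, with the nearest genes in pattern. A gene that this rule selects is not reported here. Other genes named, such as the cell type markers Flt3, Zbtb46, Cd209a, Xcr1, Ccr7, Clec9a, Cd3d, Fn1 and Gpr17, and Hcst, Xist and Ddx3y, fall outside the rule and were chosen after their values were seen. Intervals and floors cover counting error only.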

Additional observations from a re-analysis of the deposited data

Results flagged for a closer look

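In 48 groups of 4 libraries, over the members, Kcna1 and Gfap, 6 had a library far from the other 3 by Dixon's test (critical value 0.829). Chance gives about 1 in 20 for values without ties. Where the other 3 libraries are all at 0, as for Cst7 and Clec7a below, any count is flagged. Kcna1 in the knockouts on the standard diet had its highest value, 82.0 CPM, in KC888LL, with the next at 47.0 CPM. Lpl in the same group was highest in KC888LL as well, at 129 CPM, with the next at 102 CPM. Kcna1 in the wild types on the standard diet was highest in KC894RLL at 129.7 CPM, with the next at 118 CPM. Trem2 was lowest among the wild types on the standard diet in KC897RR, at 5.56 CPM, with the next at 7.84 CPM. Cst7 was above 0 in 1 wild type on the standard diet, KC894RLL, at 0.135 CPM from 2 counts, and Clec7a in 1 wild type on the ketogenic diet, KC842L, at 0.152 CPM from 3 counts; both lie at or under the floor of 3 counts.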

How the results depend on the processing

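The count of members called was 0 in all 5 comparisons with edgeR as described above. For KO against WT on the standard diet DESeq2, run with its own filter on low means, gave 4 (edgeR without a filter: 0). Leaving out each library in turn gave 0 to 5, with 5 without KC888LL. For the diets in knockouts, no filter on low counts gave 1, no robust estimation 1 and DESeq2 with its own filter 3, and leaving out each library gave 0 to 5. In all, no filter called 231 of 33151 genes, no robust estimation 217 of 17469 and DESeq2 664 genes. Over all genes the standard diet genotype comparison gave 1 call, 171 with DESeq2 under its own filter and 18 with edgeR without a filter. The diet comparison in knockouts gave 202, with 664 by DESeq2, 7 with Xist as a covariate and 9 with only the groups compared. It gave 28 without KC872RL and 1096 without KC888LL. Some log2 differences turned sign, and the cause was not tested. With only the libraries that have Xist and no Y-linked expression, or without KC872RL and KC873RR, Spp1 between diets in knockouts was 0.01 in each, Axl 0.13 in each and Syk 0.33 in each. In those same settings, in that order, KO against WT on the standard diet gave Axl at -0.08 and -0.07, Apoe at -0.03 and -0.04, P2ry12 at -0.01 and -0.03, Tmem119 at -0.05 and -0.07, Cx3cr1 at -0.06 and -0.07 and Fcrls at -0.13 and -0.07; Syk was at -0.01 in the second. With Xist as a covariate Axl was at 0.01 and Syk at 0.07 between diets in knockouts. Over the alternatives Trem2 in knockouts on the standard diet ranged from 0.13 to 1.19 (adjusted p from 0.0318 to 0.999) and Gpnmb from 1.59 to 2.91 (0.00322 to 0.999). No paired analysis was possible because the columns carry no replicate numbers. Low counts limit Cst7, Itgax and Clec7a, which are at or near the floor in most libraries.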
